A study of Mus musculus with 30 samples.

Results

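The genes described here encode the growth inhibitors carried by central nervous system myelin and the receptors through which neurons sense them. They were taken by gene name from a list of 10 mouse genes, of which 8 had a row among the 16995 genes measured: the ligands Rtn4, Mag and Omg, the ligand-binding receptors Rtn4r, Rtn4rl1 and S1pr2, and the co-receptors Lingo1 and Tnfrsf19. Lilrb3 had a row under its RefSeq synonym Pirb, which is described beside the 8 and not counted with them. Rtn4rl2 was not analysed here.

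RNA was sequenced from the intermediate laminae of the left, denervated cervical hemicord at C5 and C6 of adult female C57BL/6 mice. Stroke animals received a photothrombotic stroke of the right sensorimotor cortex and were taken at 4, 7, 14, 28 or 42 days post injury (dpi), and sham animals were operated without illumination and labelled Ctrl. No animal carried a transgene, and tissue pieces held all cell types of the laminae. Values were used for 29 animals, 4 at 4 dpi and 5 in each of the other groups, and 1 animal labelled 4 dpi was left out of the table by the authors. Animals were numbered in 11 units whose meaning the labels do not give, and each unit held 1 group except A3, with 2 animals at 28 dpi and 1 at 42 dpi. The other 4 animals at 42 dpi were all of unit A1. Outside unit A3, unit and time cannot be told apart in any group. The study asked which molecules accompany the sprouting of spared corticospinal fibers into this hemicord.

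As background, myelin of the adult brain and spinal cord limits the growth of axons. Nogo-A (from Rtn4), myelin-associated glycoprotein (Mag) and oligodendrocyte myelin glycoprotein (Omg) share the GPI-anchored Nogo receptor (Rtn4r), which lacks an intracellular part and signals through Lingo1 together with the p75 receptor (Ngfr) or TROY (Tnfrsf19). Rtn4rl1 is a relative of the Nogo receptor, Pirb is a second receptor for the same ligands, and S1pr2 binds another stretch of Nogo-A. These routes converge inside the axon on signals that collapse the growth cone. In adult tissue Mag is made by oligodendrocytes, Omg by oligodendrocytes and neurons, and Rtn4 by both as well.

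The values were CPM (read counts scaled for sequencing depth) that the authors normalized and rounded to 0.1, and a difference below is one of log2(value + 0.5) between group means, given with its standard error (SE). An adjusted p is from limma over all 16995 genes, and an SDEG (significantly differentially expressed gene) passed 0.05 on that scale with more than a 1.5-fold change, a linear threshold set here. The depth of the libraries is unknown. In tissue RNA, fewer cells of a type and less RNA per cell cannot be told apart.

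Facts of the series that touch these genes are few. Column sums of the table ranged from 714597 to 2256910. Rn18s-rs5, a ribosomal RNA, lay between 30321 and 52929 in sham animals. On day 4 it ran from 18295 to 114030, with 3 of 4 animals below the sham range and 1 above it. At later times 0 animals lay below that range. Those above it were 3 of 5 on day 7, 3 of 5 on day 14 (32754 to 817780), 4 of 5 on day 28 (44755 to 779160) and 5 of 5 on day 42 (78737 to 457300). Neuronal markers (12 genes) summed to between 5337.0 and 7566.6 in sham animals, and the glycine transporter Slc6a5, found in spinal inhibitory neurons, averaged 337. The peripheral myelin list had 1 of 5 genes with a row, Ncmap, at 1.3 to 2.3 in sham animals, so that its defining genes could not be used to check for nerve root.

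In mm10 coordinates, Rtn4 lies at chr11:29692947-29744331 on the plus strand and its exons overlap those of Eml6 on the other strand by 1284 bases. The library kit did not keep strand, so reads of this overlap cannot be told apart, and 17.5% of the 31-base words of Rtn4 also occur in Eml6. Mag lies at chr7:30899176-30914873 and Omg at chr11:79500982-79504084, both on the minus strand, and Omg lies inside Nf1 without sharing exon bases with it. The receptors were at chr16:18127642-18152408 for Rtn4r, chr11:75193783-75267769 for Rtn4rl1 and chr9:20962361-20976781 for S1pr2. The co-receptors were at chr9:56618475-56796468 for Lingo1 and chr14:60963834-61046855 for Tnfrsf19. Pirb, at chr7:3711409-3720391, shared 23.7% of its words with Gm14548 and 23.1% with Lilra6, and its values are uncertain for that reason.

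Gene-level values pool all transcripts of a gene. This matters most for Rtn4, whose protein forms Nogo-A, Nogo-B and Nogo-C arise from different starts and splicing. Promoter windows (250 bases before to 50 after a start, RefSeq, GRCm38.p6) were matched for 8 of the 10 genes or their synonym, with 3 starts for Rtn4 and 3 for Mag. The first and the innermost Rtn4 window and the first Mag window are shown, because Rtn4 and Mag were the most abundant of these genes and because the Rtn4 pair shows how unlike the starts of 1 gene can be. The Rtn4 windows are on the plus strand at chr11:29692648-29692947 and chr11:29718313-29718612, and the Mag window is on the minus strand at chr7:30914814-30915113. Capitals mark matches on either strand to ACAAAG or ACAATG (letters bound by SOX-family factors), TATAAA and GGGCGG (a GC box), which do not overlap each other here.
Rtn4 first start: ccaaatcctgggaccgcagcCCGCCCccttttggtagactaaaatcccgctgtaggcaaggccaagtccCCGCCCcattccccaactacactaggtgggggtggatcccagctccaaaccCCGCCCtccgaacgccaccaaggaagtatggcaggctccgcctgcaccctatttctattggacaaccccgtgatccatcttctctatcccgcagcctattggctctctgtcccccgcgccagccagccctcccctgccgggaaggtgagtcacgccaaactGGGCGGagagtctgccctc
Rtn4 innermost start: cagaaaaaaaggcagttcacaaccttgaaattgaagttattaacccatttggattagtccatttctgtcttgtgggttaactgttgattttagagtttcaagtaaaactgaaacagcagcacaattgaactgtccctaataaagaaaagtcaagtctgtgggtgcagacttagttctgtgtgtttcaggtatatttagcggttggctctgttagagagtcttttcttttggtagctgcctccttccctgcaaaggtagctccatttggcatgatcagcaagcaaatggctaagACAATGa
Mag first start: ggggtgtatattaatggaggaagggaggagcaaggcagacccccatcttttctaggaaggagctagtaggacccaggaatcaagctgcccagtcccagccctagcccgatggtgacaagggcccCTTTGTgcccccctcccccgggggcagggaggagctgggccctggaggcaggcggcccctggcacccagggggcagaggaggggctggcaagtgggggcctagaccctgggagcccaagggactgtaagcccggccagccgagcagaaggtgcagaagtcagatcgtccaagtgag
The first Rtn4 window held 15 CG dinucleotides and 4 GC-box matches, the innermost Rtn4 window 1 CG and 1 ACAATG match, and the Mag window 6 CG and 1 ACAAAG match. Among 32851 windows of this length, 35.7% held GGGCGG, 18.7% ACAAAG, 12.6% ACAATG and 13.6% TATAAA, and the median number of CG was 7. The letters are a description of these windows, and the values cannot say which start was used. Omg and Rtn4rl1 had no entry.

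The ligands were abundant in this tissue and the receptors that bind them were not. Per kilobase of exon, sham animals had 76.8 ± 10.5 CPM (SD, n = 5) of Mag, 66.9 ± 2.71 of Rtn4 and 32.7 ± 2.41 of Omg. The co-receptors followed with 7.62 ± 0.307 per kilobase for Tnfrsf19 and 4.92 ± 0.487 for Lingo1. The binding receptors were lower still, at 0.671 ± 0.228 for Rtn4r, 0.579 ± 0.102 for Rtn4rl1 and 0.161 ± 0.0337 for S1pr2, and Pirb was at 0.103 ± 0.0539. In this order the animals of Mag and Rtn4 overlapped, as did those of Rtn4r and Rtn4rl1 and those of S1pr2 and Pirb. Ngfr, at 0.400 ± 0.101, overlapped Rtn4rl1 and lay above S1pr2, and the 4 remaining steps separated the 5 sham animals. Dividing by the longest transcript instead gave 128 for Mag and 101 for Rtn4.

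**Figure D1:**
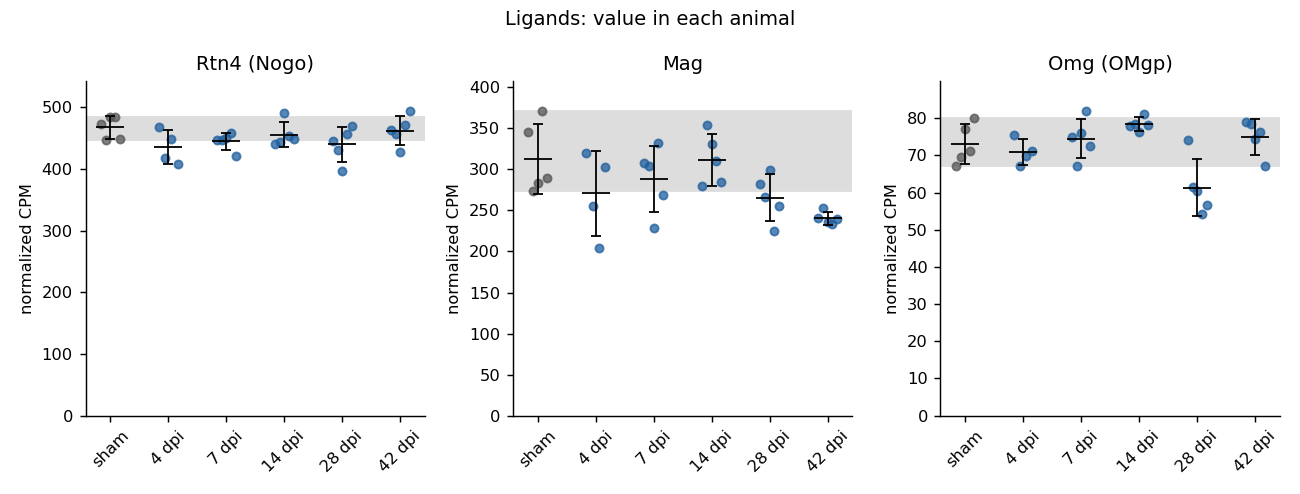
Normalized CPM (y axis, from 0) of the 3 ligands in each animal (points) of each group (x axis), with the group mean and SD in black and the range of the 5 sham animals in grey. Omg at 28 dpi has 4 of 5 animals below the sham range, and Mag at 42 dpi has all 5 below it, while Rtn4 stays between 397.3 and 493.4.

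Across the 5 comparisons of a time point with sham, 1 call was made among these genes: Omg fell at 28 dpi. At 4 dpi 0 of 8 genes passed an adjusted p of 0.05 in limma (1 had an unadjusted p under 0.05), where 0.106% of all genes did. For 7 dpi the limma count was 0 of 8 (1 unadjusted) against 0.0294% of all genes. It was 0 of 8 on day 14 (0 unadjusted) against 0.00588%, and 0 of 8 on day 42 (1 unadjusted) against 0.0235%. At 28 dpi 1 of 8 passed (2 unadjusted), where 24.9% of all genes passed, so that the share of these genes was not above the background. None of the 8 was an SDEG at any time, where SDEGs made up 0.0941%, 0.0294%, 0.00588%, 4.64% and 0.0235% of all genes on days 4, 7, 14, 28 and 42. In the F test over the 5 time points 2 of 8 passed, Mag and Omg, against 31.6% of all genes. Scaling matters for every count at 28 dpi: with values rescaled to the same sum in each animal, all genes had a median of -0.71, all 8 members fell, and 11253 of 16995 genes passed in either direction. That sum includes Rn18s-rs5, which averaged 37715 in sham and 371410 at 28 dpi, and more of it lowers the rescaled values of all other genes. Its part in the rescaled differences was not tested.

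Rtn4 encodes Nogo-A, the best studied of the myelin inhibitors, along with its shorter forms. Its values were 473.6, 446.3, 485.2, 483.8 and 448.3 in the sham animals and 445.5, 430.6, 397.3, 456.2 and 470.2 at 28 dpi. On day 4 they were 467.9, 417.5, 448.6 and 407.9, and on day 42 they were 464.1, 456.1, 427.4, 471.0 and 493.4. The stroke groups overlapped the sham group at every time. The mean over the 6 groups moved only from 435 at 4 dpi to 467 in sham, a ratio of 1.07, and the spread within groups was 0.07 on the log2 scale, the smallest among the 8. The difference from sham was -0.10, -0.07, -0.04, -0.09 and -0.02 on days 4, 7, 14, 28 and 42 (SE 0.05 to 0.06), with adjusted p values between 0.234 and 1.00. On the deposited scale the 95% interval of the fold change was 0.870 to 1.02 at 28 dpi and 0.915 to 1.07 at 42 dpi. After rescaling to the same sum the differences lay outside these intervals, at -0.88 (adjusted p = 0.00328) and -0.57 (adjusted p = 0.0823). Rtn4 also passed at 28 dpi when gene length and GC content were corrected for (-0.15, adjusted p = 0.0414).

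Mag, a sialic acid-binding adhesion molecule of the innermost myelin layer, was below its sham mean in every stroke group, and no single time point passed the test. Sham animals had 345.3, 274.3, 283.3, 370.6 and 290.1. At 42 dpi the values were 240.9, 252.8, 235.8, 233.0 and 239.1. All 5 animals at 42 dpi lay below the lowest sham animal, and they differed among themselves far less (coefficient of variation 3.17%) than the sham animals did (13.6%). The difference from sham at 42 dpi was -0.37 ± 0.11, a fold change of 0.774 with a 95% interval from 0.665 to 0.901, and it missed the threshold over all genes (adjusted p = 0.125). The size depended on the fit: it was -0.92 after rescaling to the same sum (adjusted p = 0.0544) and -0.07 with the mean of oligodendrocyte markers as a covariate (adjusted p = 0.865), a fit in which 0 of 16995 genes passed in limma at 42 dpi (1300 unadjusted). At 28 dpi the values were 281.9, 265.9, 299.8, 224.4 and 255.4, 3 of them under the sham range, and the difference was -0.23 ± 0.11 (adjusted p = 0.107). It was -1.02 after rescaling (adjusted p = 0.00118) and 0.06 with that covariate (adjusted p = 0.649). At 4 dpi, with 4 animals, the difference was -0.22 ± 0.11 (adjusted p = 0.996), -0.09 without animal A9-2 and -0.05 with the covariate. Mag averaged 271, 288 and 312 on days 4, 7 and 14 against 313 in sham, with 2, 2 and 0 animals below the sham range. The F test over the time course passed for Mag (adjusted p = 0.0375), and it did not pass without any 1 of 11 animals (adjusted p 0.0534 to 0.0705). Nor did the F test pass with quantile normalization (adjusted p = 0.0551) or without the trend (0.0672). With ribosomal RNA as a covariate its adjusted p was 0.0768, and with the oligodendrocyte marker mean 0.243.

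Mag is a gene of oligodendrocytes, and other genes of these cells were measured beside it. The list of 14 oligodendrocyte markers had a median difference from sham of -0.35 at 28 dpi and -0.32 at 42 dpi, against -0.0048 and -0.0070 for all genes. On days 4, 7 and 14 the median was -0.22, -0.17 and -0.11. At these times 0 of 14 passed in limma, where 0.106%, 0.0294% and 0.00588% of all genes did, and 6, 4 and 1 had an unadjusted p under 0.05. At 28 dpi 9 of the 14 passed (64.3%, where 24.9% of all genes did), and with ribosomal RNA as a covariate 0 passed at a median of -0.38, a fit in which 0 of 16995 genes passed (3751 unadjusted). Of the 9, 8 fell, among them the myelin genes Mobp (-0.47 ± 0.11), Mog (-0.44 ± 0.10) and Cldn11 (-0.58 ± 0.11), and 1 rose (Myrf, the transcription factor that drives myelin genes, 0.50 ± 0.13). At 42 dpi 0 of the 14 passed in limma (11 had an unadjusted p under 0.05), and their mean log2 level was below the sham range in 5 of 5 animals. The summed level of the list was 6704.5 to 9920.4 in sham animals, 4848.8 to 7047.7 at 28 dpi and 5567.0 to 6764.6 at 42 dpi, and no marker of it was at 0. Relative to the mean of these markers Mag was at 1.07 ± 0.0768 (log2, SD, n = 5) in sham animals, 1.11 ± 0.0653 at 28 dpi and 0.976 ± 0.0871 at 42 dpi.

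Omg, a GPI-anchored protein with leucine-rich repeats, dipped at 28 dpi. Sham animals had 67.1, 69.5, 77.0, 71.2 and 80.0. At 28 dpi the values were 74.1, 61.6, 60.3, 54.1 and 56.6. Animal A3-1 at 28 dpi stayed within the sham range and the other 4 were below it. Omg was 0.839 times its sham level (95% interval 0.761 to 0.924), a difference of -0.25 ± 0.07 (adjusted p = 0.00944), and leaving out any 1 of the 10 animals gave -0.32 to -0.21. It also passed after rescaling to the same sum (-1.04, adjusted p = 0.00101) and when length and GC content were corrected for (-0.18, adjusted p = 0.0236). The call was lost with ribosomal RNA as a covariate (-0.26, adjusted p = 0.0909), a fit in which 0 of 16995 genes passed in limma at 28 dpi (3751 had an unadjusted p under 0.05). It was also lost with the oligodendrocyte marker mean as a covariate (-0.21, adjusted p = 0.105) and in a fit of these 2 groups alone (-0.25, adjusted p = 0.0616).

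On the deposited scale the dip of Omg was larger when 28 dpi was set against its neighbours in time than against sham. After rescaling to the same sum it was smaller against both neighbours. These differences were not tested against each other. On day 14 the animals had 78.0, 78.5, 76.2, 81.2 and 78.2, and on day 42 they had 79.0, 78.4, 74.4, 76.4 and 67.0. No animal at 28 dpi reached the lowest at 14 dpi, whereas A3-1 overlapped the animals at 42 dpi. From 14 to 28 dpi Omg fell by 0.36 ± 0.07 on the log2 scale (adjusted p = 0.000162), a comparison in which 43.0% of all genes passed, and 2 of 8 of these genes did. The fall was 0.22 when length and GC content were corrected for, and after rescaling the difference was -0.62 and did not pass (adjusted p = 0.138). From 28 to 42 dpi it rose by 0.29 ± 0.07 (adjusted p = 0.0290), and it was the only one of the 8 to pass where 1.94% of all genes did. Over all genes 330 passed, and this count ran from 1 to 1278 when 1 animal was left out. The rise of Omg did not pass when any 1 of 6 animals was left out (A3-3, A4-3 or A4-4 at 28 dpi, A1-1, A1-2 or A1-4 at 42 dpi, with adjusted p of 0.0647 or more). Nor did it pass after rescaling (0.53, adjusted p = 0.781), when length and GC content were corrected for (0.18, adjusted p = 0.0889), with quantile normalization (0.26, adjusted p = 0.0507), without the trend (0.29, adjusted p = 0.0558) or with only these 2 groups (0.29, adjusted p = 0.173). At 42 dpi Omg differed from sham by 0.04 ± 0.07, with a fold change between 0.934 and 1.13. The F test passed (adjusted p = 0.00300), also without any 1 animal.

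Omg and Mag were at 0.839 and 0.851 of their sham level at 28 dpi and at 1.03 and 0.774 at 42 dpi. This pair was chosen after its values were seen, and the ratio of 2 genes within an animal does not depend on how the animal's values were scaled. The log2 ratio of Omg to Mag was -2.35, -1.97, -1.87, -2.37 and -1.85 in the sham animals and -1.60, -1.68, -1.66, -1.60 and -1.83 at 42 dpi. All 5 animals at 42 dpi lay above the sham range. The mean ratio was -2.08 ± 0.258 (SD, n = 5) in sham, -2.11 ± 0.142 at 28 dpi and -1.67 ± 0.0925 at 42 dpi, and no test is given because the pair was chosen for this pattern.

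**Figure D2:**
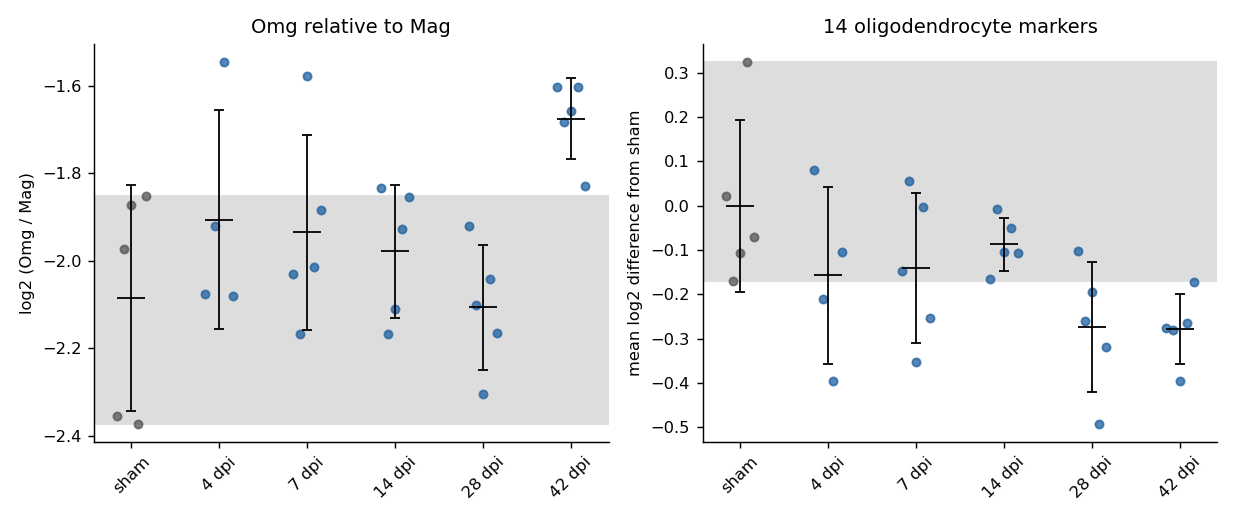
Left, log2 ratio of Omg to Mag in each animal. Right, mean log2 difference from the sham mean of 14 oligodendrocyte markers. Groups are on the x axes, points are animals, black marks are the mean and SD, and grey is the sham range. The ratio at 42 dpi lies between -1.83 and -1.60, above all sham animals, while the markers are below the sham range in all 5 animals at 42 dpi and in 4 of 5 at 28 dpi.

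The binding receptors were read at 3.1 CPM or less in every animal, and changes of moderate size were not detectable. Rtn4r encodes NgR1, the receptor common to the 3 ligands. Its values were 1.6, 1.1, 0.8, 1.1 and 1.9 in sham animals and 0.8, 1.4, 0.8, 1.6 and 0.1 at 42 dpi. The groups overlapped, and the lowest value, 0.1, is 1 step of the rounding. The difference at 42 dpi was -0.41 ± 0.23 (adjusted p = 0.419) and -0.13 without the animal at 0.1, and at 28 dpi it was -0.08 ± 0.23, with a fold change anywhere between 0.684 and 1.31. Rtn4rl1, which encodes NgR3, averaged 2.04 ± 0.358 (SD, n = 5) in sham and 1.70 ± 0.141 (SD, n = 5) at 28 dpi. Its differences from sham ran from -0.20 to 0.01, with adjusted p values of 0.457 or more, and the interval of its fold change at 28 dpi was 0.669 to 1.14.

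S1pr2 is a G protein-coupled receptor for sphingosine 1-phosphate that also binds Nogo-A. Its values were 1.4, 1.1, 1.5, 1.5 and 0.9 in sham animals and 1.3, 1.4, 0.8, 0.7 and 1.2 at 28 dpi. They overlapped, and the difference was -0.18 ± 0.17 (adjusted p = 0.451, fold change between 0.692 and 1.12). It ran from -0.69 to 0.04 over 12 alternatives, passing in 1, and from -0.26 to -0.09 when 1 animal was left out. Pirb, an inhibitory receptor of immune cells that is also found on neurons, had 0.4, 0.2, 0.3, 0.6 and 0.8 in sham animals and 1.0, 0.7, 1.2, 0.7 and 0.5 at 42 dpi. Its group means went from 0.440 at 7 dpi to 0.820 at 42 dpi, a ratio of 1.86 and the widest here, and its difference there was 0.47 ± 0.23 (adjusted p = 0.341). Microglial markers had a median difference from sham of 0.55 at 4 dpi, with values from 0.25 to 0.84. In limma 1 of 8 passed there (Csf1r, 0.74 ± 0.13) and 6 had an unadjusted p under 0.05, where 0.106% of all genes passed. Their median was 0.34 at 14 dpi and 0.10 at 42 dpi. At these times 0 of 8 passed in limma (5 and 0 unadjusted), where 0.00588% and 0.0235% of all genes did. Pirb differed from sham by 0.33 ± 0.25 at 4 dpi (adjusted p = 1.00). The part of microglia in the Pirb values was not tested.

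**Figure D3:**
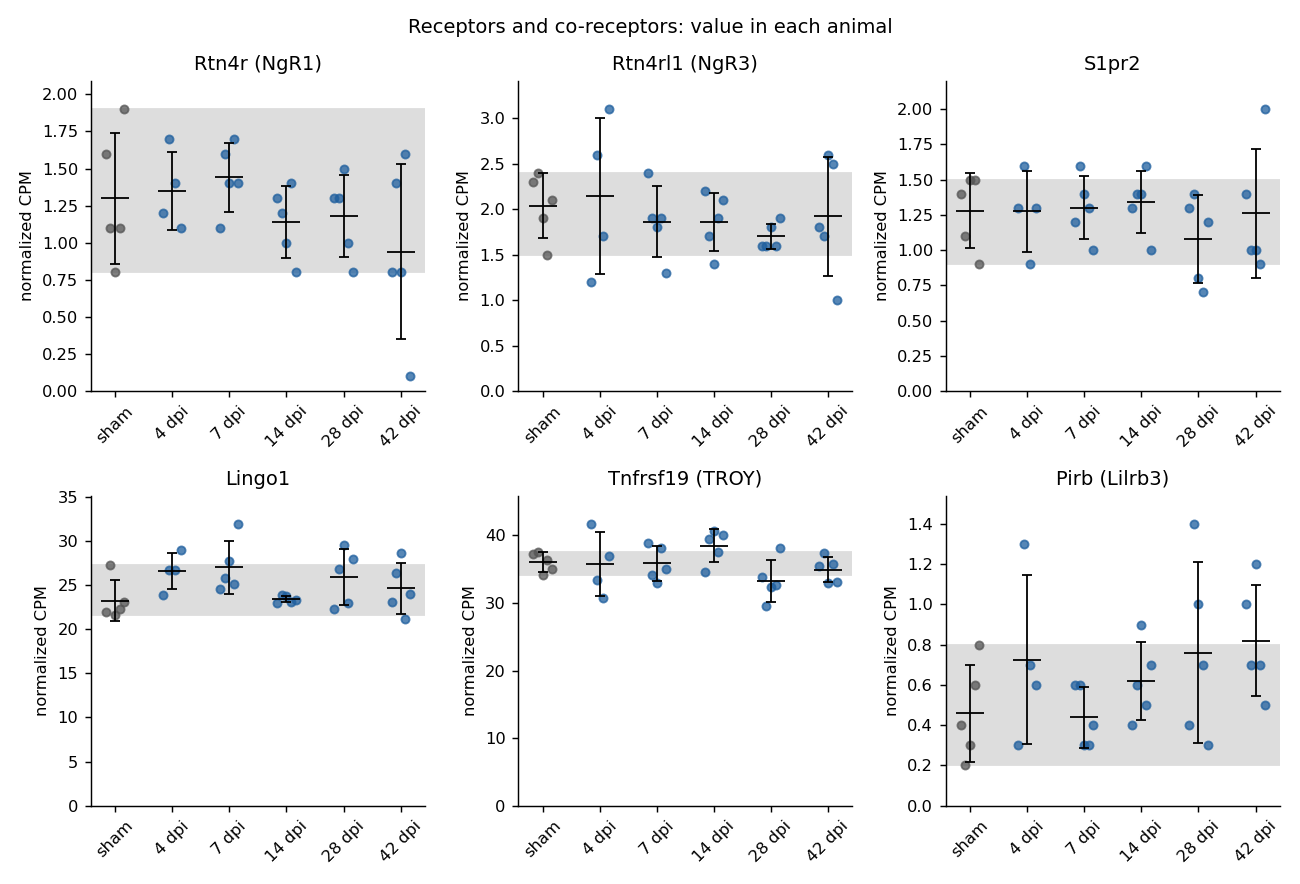
Normalized CPM (y axes, from 0, different scales) of the receptors and co-receptors in each animal, with the group mean and SD in black and the sham range in grey. Rtn4r, Rtn4rl1, S1pr2 and Pirb stay at 3.1 CPM or less and overlap the sham range in every group, and Lingo1 is between 21.1 and 31.9.

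Lingo1, the transmembrane partner of the Nogo receptor and a brake on oligodendrocyte maturation, was above its sham mean in every stroke group, without passing the test. Sham animals had 21.9, 27.2, 21.6, 22.3 and 23.1. On day 4 the values were 23.9, 26.7, 26.7 and 28.9, followed on day 7 by 24.5, 25.8, 27.7, 25.1 and 31.9. Apart from sham animal A11-4 at 27.2, all sham animals lay below all animals of both early groups. The difference was 0.19 ± 0.09 at 4 dpi (adjusted p = 0.942) and 0.21 ± 0.09 on day 7 (adjusted p = 0.802), so that neither passed. Leaving out any 1 animal, A11-4 included, gave no call at either time (limma adjusted p of 0.553 or more). At 14 dpi the 5 animals were within 23.0 to 23.8 and the difference was 0.01 ± 0.09. At 28 dpi it was 0.15 ± 0.09 (adjusted p = 0.194), the one positive difference among the 8 genes at that time, but -0.62 (adjusted p = 0.0326) when values were rescaled to the same sum. With the oligodendrocyte marker mean as a covariate it was 0.07 (limma adjusted p = 0.699), a fit in which 3 of the 8 genes were positive. On day 42 the difference of Lingo1 was 0.08 ± 0.09.

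Tnfrsf19, which can stand in for the p75 receptor in the complex, was highest at 14 dpi and lowest at 28 dpi. Its values were 34.6, 39.4, 40.7, 37.5 and 40.1 at 14 dpi and 33.9, 29.5, 32.3, 32.7 and 38.1 at 28 dpi. Sham animals had 37.3, 37.5, 34.1, 36.4 and 35.1. At 28 dpi 4 of 5 animals were below the sham range and 1 above it, and the groups at 14 and 28 dpi overlapped. Between them Tnfrsf19 fell by 0.21 ± 0.07 on the log2 scale (adjusted p = 0.0214), and this call was lost without A5-4 at 14 dpi (adjusted p = 0.0576) or without A3-3 at 28 dpi (0.0804). It was also lost after rescaling (-0.47, adjusted p = 0.274), with quantile normalization (-0.16, adjusted p = 0.0730), median centring (-0.17, adjusted p = 0.0791) and the oligodendrocyte marker mean as a covariate (-0.15, adjusted p = 0.115). Against sham its difference was 0.09 ± 0.07 at 14 dpi and -0.12 ± 0.07 at 28 dpi (adjusted p = 0.624 and 0.230).

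**Figure D4:**
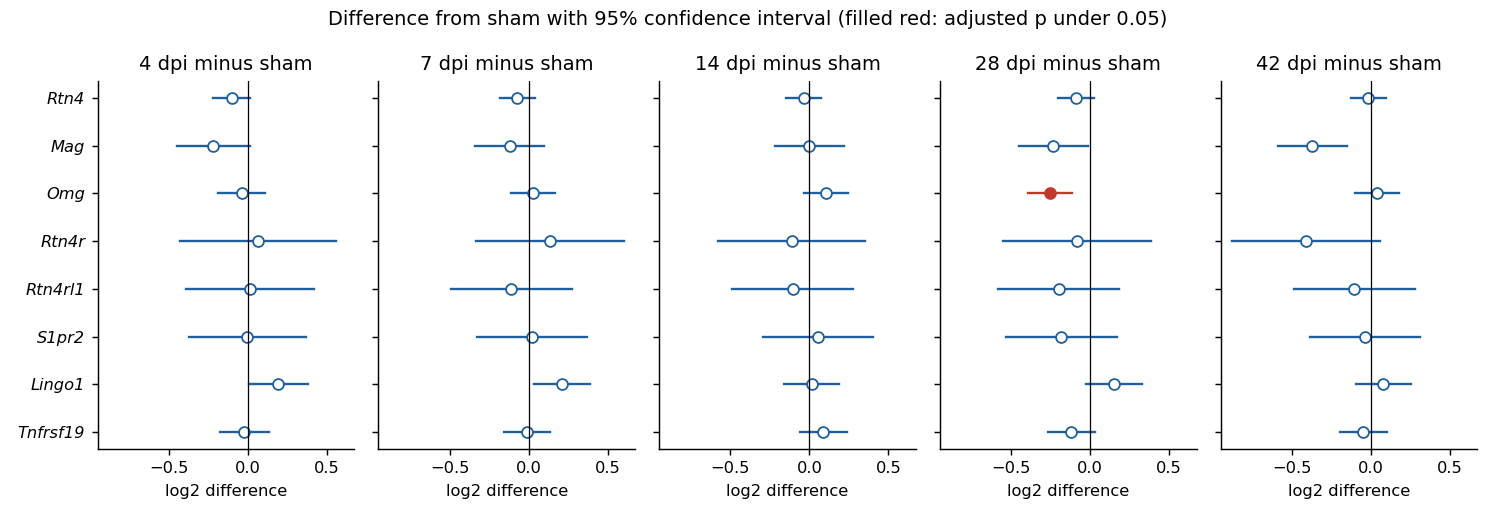
Difference from sham on the log2(value + 0.5) scale (x axes) of the 8 genes (rows) at each time point (panels), with 95% confidence intervals from limma as lines. The Omg interval at 28 dpi, from -0.39 to -0.11, is the one whose gene passed an adjusted p of 0.05 (red), and 7 of the 8 points at 28 dpi are below 0, or all 8 when values are rescaled to the same sum.

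Over the 8 genes, the median difference from sham was -0.01, 0.01, 0.01, -0.15 and -0.04 on days 4, 7, 14, 28 and 42, while that of all genes stayed between -0.0085 and 0.0057. The median at 28 dpi depended on the fit. It was -0.82 after rescaling to the same sum (-0.71 for all genes) and -0.24 with quantile normalization (-0.02 for all genes). With the oligodendrocyte marker mean as a covariate it was -0.05 (-0.0053 for all genes). The genes did not vary as 1 group among animals. After subtracting group means, Pearson's r over the 29 animals was 0.56 for Mag and Tnfrsf19, 0.38 for Rtn4r and Rtn4rl1, -0.61 for Rtn4 and Lingo1 and -0.55 for Rtn4 and Rtn4rl1. Mag with Omg had an r of 0.19, and Rtn4 with Mag 0.02. The points are animals, and all genes of an animal share its tissue piece, depth and cell makeup.

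The genes that varied most like each member between animals of a group differed as well. Mag was closest to Gsn (r = 0.89), Klk6 (0.89) and Ndrg1 (0.88), and its median r with the 14 oligodendrocyte markers was 0.70. Omg was closest to Ier3ip1 (0.78), Grsf1 (0.77) and Rsl1d1 (0.75), with a median r of 0.22 with the same markers. Rtn4 was closest to Kif21a (0.82), Pafah1b1 (0.81) and Eif5a2 (0.81), and its median with the markers was 0.13. For Lingo1 the closest were Syt12 (0.74), Pacsin1 (0.73) and Ttyh3 (0.72), with a median of -0.25, and for Tnfrsf19 they were Smpd1 (0.69), Ostm1 (0.68) and Ephb6 (0.68), with a median of 0.35. The receptors at low values gave Mkrn2, Arhgef15 and Acp6 for Rtn4r (0.69 to 0.72), Sall3, Camkv and Ica1l for Rtn4rl1 (0.76 to 0.78), Arpc1b, Zmpste24 and Itga9 for S1pr2 (0.68 to 0.70) and Cnnm3, Col4a2 and Ppp2r5a for Pirb (0.65 to 0.67). Each is the top of about 11146 genes with a mean value of 5 or more over 29 animals, given as a description.

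Other genes of the pathway passed against sham at 28 dpi, and 0 did in limma at the other times (4, 2, 5 and 4 of 30 had an unadjusted p under 0.05 on days 4, 7, 14 and 42). Of 14 further receptors and co-receptors, 8 rose and 2 fell at 28 dpi, or 71.4% against the background of 24.9%, with a median difference of 0.23. After rescaling to the same sum 0 rose and 7 fell (median -0.55), so the direction holds relative to the other genes and not on that scale. Lrp1, an endocytic receptor that binds Mag, had the largest rise: its animals had 568.2 to 905.0 at 28 dpi and 323.4 to 520.7 in sham, without overlap, and the difference was 0.74 ± 0.13 (adjusted p = 0.00139). It was the one SDEG of these lists. Lingo4, a paralog of Lingo1, rose by 0.37 ± 0.09 (adjusted p = 0.00689), and Adgrb1, an adhesion receptor that binds Nogo receptors, by 0.27 ± 0.08 (adjusted p = 0.0145) with all 5 animals above the sham range. Ptprf, a receptor phosphatase for chondroitin sulfate proteoglycans, rose by 0.30 ± 0.10 (adjusted p = 0.0238), and Amigo3, which can replace Lingo1 in the receptor complex, by 0.58 ± 0.19 (adjusted p = 0.0268) at values of 1.6 to 4.7 against 1.1 to 2.0. Tspan3, a tetraspanin that partners S1pr2 in binding Nogo-A, fell by 0.34 ± 0.08 (adjusted p = 0.00491), with 3 of 5 animals below the sham range.

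Ngfr, the p75 neurotrophin receptor, did not pass at any time. Sham animals had 1.2, 1.7, 1.0, 1.2 and 1.8. The values were 2.4, 2.0, 1.3 and 3.0 on day 4 and 2.8, 2.4, 2.2, 0.9 and 1.9 on day 28. The groups overlapped, although 3 of 4 and 4 of 5 animals of these groups were above the sham range. The difference from sham was 0.49 ± 0.21 at 4 dpi (adjusted p = 0.844) and 0.40 ± 0.20 at 28 dpi (adjusted p = 0.141).

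**Figure D5:**
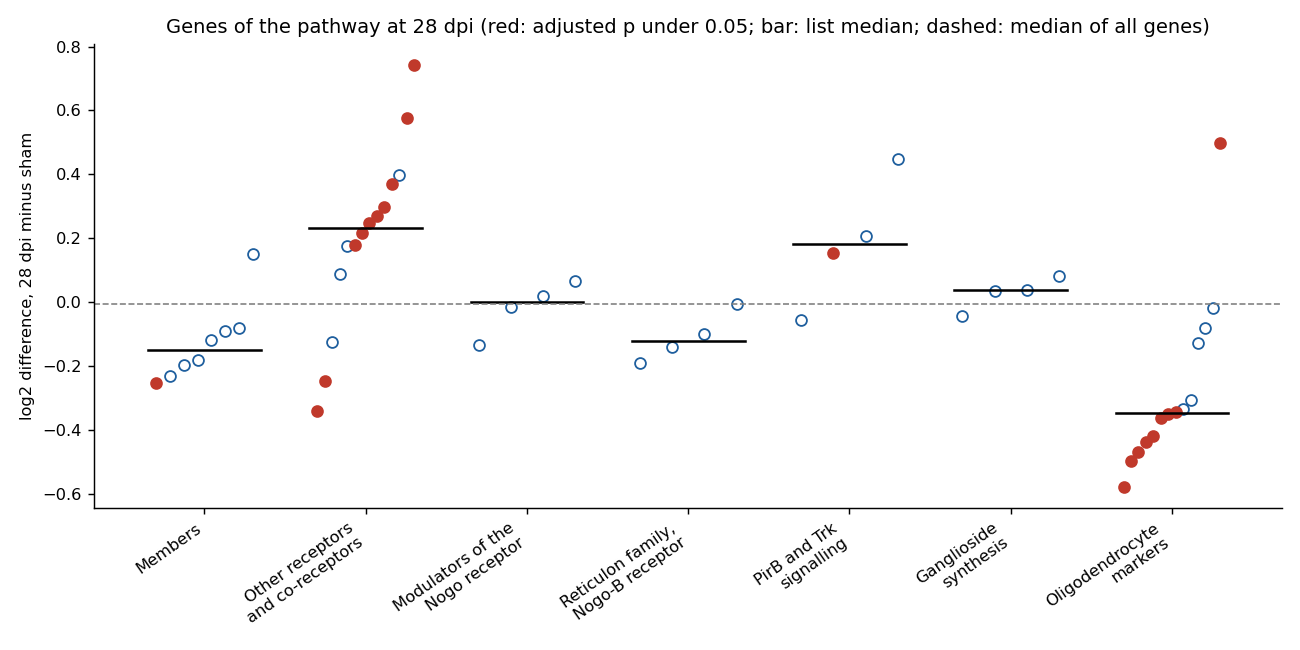
Difference from sham at 28 dpi (y axis, log2(value + 0.5) scale) of each gene (points) of the 8 members, 5 pathway lists and the oligodendrocyte markers (x axis). Red points passed an adjusted p of 0.05, black bars are list medians and the dashed line is the median of all genes. Of the further receptors 8 of 14 rose, Lrp1 by 0.74 (none rose after rescaling to the same sum), and of the oligodendrocyte markers 8 of 14 fell.

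Of 4 phosphatases and kinases of Pirb and Trk signalling 1 rose at 28 dpi, Ntrk2, the receptor for BDNF, by 0.16 ± 0.06 (adjusted p = 0.0385), a share of 25.0% where 24.9% of all genes passed. No gene of this list rose without the trend, with only these 2 groups, with either covariate, after rescaling, when length and GC content were corrected for, or without A12-1, A12-2 or A12-3 in sham or A3-3, A4-3 or A4-4 at 28 dpi. Without A3-1 at 28 dpi 2 rose, whereas 1 fell when length and GC content were corrected for and 3 fell after rescaling. None of the 4 extracellular or membrane modulators of the Nogo receptor (Crtac1, Olfm1, Lgi1 and Tnfsf13b), of the 4 reticulon relatives (Rtn1, Rtn2, Rtn3 and the Nogo-B receptor Nus1) or of the 4 enzymes that make gangliosides bound by Mag passed in limma at 28 dpi (2 of these 12, Nus1 and Rtn2, had an unadjusted p under 0.05), and their differences ran from -0.19 to 0.08. Of the reticulon relatives 1 fell with a minimum mean of 1, when length and GC content were corrected for, with the label unit as a block or without A4-1 at 28 dpi, and 2 fell without A11-1 in sham. Of the modulators 1 fell without A3-1 at 28 dpi, and all 12 genes fell after rescaling to the same sum.

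The number of calls among further receptors depended on the fit, as did that over all genes, while their median difference stayed between 0.16 and 0.25 in the fits named next. With ribosomal RNA as a covariate 0 of the 14 passed (median 0.23) and 0 of 16995 genes (3751 unadjusted in limma). With the oligodendrocyte marker mean as a covariate 1 passed (median 0.16), among 643 genes in all. With only these 2 groups 4 passed (median 0.23, 2202 genes in all), as they did when length and GC content were corrected for (median 0.16, 4416 genes). Leaving out sham animal A12-1 left 4 (median 0.21, 2198 genes), and leaving out A3-3 or A4-4 at 28 dpi left 5 (medians 0.25 and 0.19, 2237 and 3298 genes). The parts of ribosomal RNA and of cell makeup in these differences were not tested beyond these fits.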

How the data were processed

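RNA of 29 mice (ribosomal RNA depleted, TruSeq v2, without strand, 125-base single reads) was processed by the authors with SALMON 0.8.1 (mm10), Tximport 1.0.3 for gene values and edgeR 3.14.0 (R 3.4.1) for normalization. They also left out genes of low expression. Of the 16995 genes left, 15497 had a mean value of at least 1. The deposited values are normalized CPM rounded to 0.1 and are treated as a score, since the column sums differ between animals and the values are not counts. The table also holds the authors' own fold changes and p-values for 5 comparisons, which were not used. The authors chose the sequenced animals of each group on scores for the cortical lesion, the motor deficit, the dissection and the RNA, and left out 1 animal at 4 dpi.

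The study states its SDEG threshold on the log2 scale, and a linear fold of 1.5 was used here. Groups were taken from the sample titles. Values were analysed as log2(value + 0.5) with limma 3.58.1 (R 4.3.3), with 1 mean per group and a mean-variance trend over all 29 animals, and p-values were adjusted over 16995 genes (Benjamini-Hochberg). The method was tested on simulated data. The members, pathway lists and markers were chosen with earlier results of these data known. Named genes were all members, the genes of each pathway list with an adjusted p under 0.05 against sham (at most the 6 smallest), Ngfr, the 3 genes closest to each member by Pearson's r of within-group residuals and Rn18s-rs5. A further list of signalling genes is not reported here. Marker genes were named to describe their list, after their values were seen, and so was the Omg to Mag ratio. Gene lengths, types and overlaps were from GENCODE M21, promoter windows from RefSeq. Alternatives were pseudocounts of 1 and 0.05, a minimum mean of 1, quantile normalization, median centring, rescaling to the same sum, no trend, only the 2 groups compared, 2 covariates, gene length and GC content corrected for, the label unit as a random block, and leaving out each animal. Figures used matplotlib 3.10.9, and the remaining computation Python 3.11.15, numpy 2.4.6, scipy 1.17.1 and pandas 2.3.3.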

Additional observations from a re-analysis of the deposited data

Results flagged for a closer look

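Among 54 combinations of a gene (the 8 members and Pirb) and a group, the highest animal stood apart from the rest of its group in 2, and chance alone flags about 1 in 20 groups. Rtn4 at 14 dpi was 490.9 in animal A5-4, with the next animal at 454.3. Lingo1 in sham animal A11-4 was 27.2, with the next at 23.1.

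The difference from sham was not the same at neighbouring times for Omg, which was 0.36 lower on the log2 scale at 28 dpi than at 14 dpi (-0.36, limma adjusted p = 0.000162) and 0.29 higher at 42 dpi than at 28 dpi (adjusted p = 0.0290). Tnfrsf19 differed by -0.21 between 28 and 14 dpi (adjusted p = 0.0214).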

How the results depend on the processing

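Of 1224 values of the 8 genes under the alternatives, over 56 combinations of a gene and a comparison, 79 had another sign than the value reported. Of these 79, 14 came after rescaling to the same sum, and none belonged to a combination that had passed. Rescaling moved the median of all genes at 28 dpi to -0.71, so that 8 members passed at 28 dpi, 7 of them as SDEGs (11253 and 10898 of 16995 genes did), and Lingo1 turned from 0.15 to -0.62 (adjusted p = 0.0326). The count at 28 dpi of 1 became 0 with only the 2 groups compared (2202 genes passing), with ribosomal RNA (0) or the oligodendrocyte marker mean (643) as a covariate, and 2 (Rtn4 and Omg) with the correction for length and GC content. It was 1 without any 1 animal. From 14 to 28 dpi the count of 2 became 1 with median centring or the marker mean and 0 after rescaling, stayed at 2 with quantile normalization as S1pr2 (-0.47, adjusted p = 0.0349) passed and Tnfrsf19 did not, rose to 3 with only the 2 groups (adding Mag) or the correction for length and GC content (adding Rtn4), and ranged from 1 to 3 without 1 animal. From 28 to 42 dpi the count of 1 became 0 with quantile normalization, rescaling, no trend, only the 2 groups or the correction for length and GC content, and ranged from 0 to 1 without 1 animal. In the F test the count of 2 became 7 after rescaling, where 11325 of 16995 genes passed, and 1 with quantile normalization (5068 genes), no trend (5073), ribosomal RNA (3487) or the marker mean (3146), against 5375 genes in the values reported. Without 1 animal it ranged from 1 to 2, losing Mag without A11-1 or A12-2 in sham, A5-3, A5-4 or A6-2 at 14 dpi, A3-3 or A4-4 at 28 dpi, or A1-1, A1-3, A1-4 or A3-4 at 42 dpi. The cause was not tested. The counts of 0 at 4, 7, 14 and 42 dpi held under every alternative. Among oligodendrocyte markers, 9 passing at 28 dpi became 0 with ribosomal RNA as a covariate (median -0.38 against -0.35, 0 of 16995 genes passing, 3751 unadjusted in limma) and 3 with their own mean (median -0.03, 643 genes). Over the alternatives that kept all animals the marker count ran from 0 to 13, and that of all genes from 0 to 11253. The Omg to Mag ratio at 42 dpi stayed between 0.34 and 0.47 above sham without any 1 animal. No paired analysis was possible because no animal number recurs between groups and 1 unit of the labels (A3) spans 2 of them. With the unit as a random block the counts of members passing were those reported, while over all genes 83 passed at 42 dpi and 746 from 28 to 42 dpi, against 4 and 330. Values of 3.1 CPM or less, recorded in steps of 0.1, limit what can be said of the receptors.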

Other observations

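Relative to the mean of the 14 oligodendrocyte markers, Rtn4 was 1.66 ± 0.167 (log2, SD, n = 5) in sham animals and 1.92 ± 0.0129 at 42 dpi, where the 5 animals lay between 1.90 and 1.93 and all above the highest sham animal at 1.82. At 42 dpi Rtn4 itself differed from sham by -0.02 and the marker mean by -0.28, and 4 of these animals were of unit A1. The difference in the relative value of Rtn4 was not tested. Relative to the same marker mean Omg was -1.02 ± 0.242 in sham and -0.698 ± 0.153 at 42 dpi, with 4 of 5 animals above the sham range.

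At 4 dpi, when 0 of the 8 members passed in limma, 1 of 7 astrocyte markers rose, where 0.106% of all genes passed: Gfap, the intermediate filament of reactive astrocytes, by 1.18 ± 0.25 on the log2 scale (adjusted p = 0.0480). The other 6 did not pass, and the median of the list was 0.09. Of 8 microglial markers 1 passed in limma at 4 dpi (Csf1r, 0.74 ± 0.13, adjusted p = 0.00915), and 6 had an unadjusted p under 0.05. Their median was 0.55, and their mean log2 level was above the sham range in 4 of 4 animals.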
